A study of Gossypium hirsutum with 3 samples.

Results

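The genes described here are the ribosomal protein genes, the genes of the nucleolus and of rRNA processing, and the translation factor genes of cotton (Gossypium hirsutum) fiber. Cotton fibers are single-celled hairs that grow out of the ovule epidermis, and dpa stands for days post anthesis. The members were chosen by words in the gene descriptions of the study's additional file: ribosomal protein, elongation factor 1 or 2, translation initiation factor, fibrillarin, nucleolar, nucleolin, bystin or rRNA processing, without descriptions that name mitochondria. The words found 43 genes, and all 43 were on the array, of 11143 genes in all. Of these, 20 encode proteins of the large ribosomal subunit and 10 proteins of the small subunit. Both classes hold a gene whose description names a bacterial-type subunit (50S or 30S). A further 4 are described as ribosomal proteins without a subunit. The rest are 2 elongation factors, 3 initiation factors and 4 genes of the nucleolus and rRNA processing. The study had placed genes in that file for fold differences between 1 dpa fiber and ovules or between 1 dpa and 10 dpa fiber. The members were thus selected partly on the ratios given below, and the file shares them with 977 other genes found by name. Every ratio and call below is therefore a description, and no member or class was tested for standing apart.

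Each of 3 arrays was hybridized with cDNA of 10 dpa fiber, the elongating stage, and cDNA of 1 dpa fiber, the fiber initials, both from field grown plants. The methods name the cultivars DES119 and ST4793R for the harvested flowers and do not tie a cultivar to an array. Fiber at 10 dpa was dissected from the ovules, and fiber at 1 dpa was shaken with glass beads off frozen ovules pooled from many bolls, so the way of collecting differed together with the stage. The methods describe polyribosomal RNA, where the source names in the labels give total RNA. Neither stage carried a treatment. The arrays are called replicates 1 to 3 without order, with 10 dpa fiber in Cy5 on replicates 1 and 3 and in Cy3 on replicate 2. The methods state biological replications from harvests on separate days, whereas the array files code 2 distinct RNAs for 10 dpa fiber and 2 for 1 dpa fiber. The number of independent harvests behind the 3 arrays is therefore not settled here, and the spread between arrays may be partly technical. In bulk RNA, fewer cells of a type and less RNA per cell cannot be told apart. In polyribosomal RNA, less mRNA and less of it on ribosomes cannot be told apart either.

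A ribosome of the cytoplasm is built in the nucleolus, where rRNA is transcribed, cleaved and modified. Ribosomal proteins join the rRNA there to form the large and the small subunit. The small subunit reads the mRNA, and the large subunit joins the amino acids. Initiation factors bring the subunits, the mRNA and the first tRNA together, and elongation factors deliver later tRNAs and move the ribosome along. In plants each ribosomal protein is usually encoded by several genes, and their mRNAs are abundant in growing tissue.

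The 2 fiber markers that were checked were higher in 10 dpa fiber. The tubulin gene Ghtub had a log2 ratio of 10 dpa over 1 dpa fiber of 2.65 ± 0.30, and the ratio was 0.82 ± 0.24 for GhRDL, whose protein resembles RD22 (SD, n = 3 arrays). The members were measured well above background. Their 157 probes lay on 163 spots, and on all arrays all of these spots exceeded, in both stages, a level that 95% of the negative controls did not exceed. Among all gene spots, the share past that level was 81.2 to 91.4% at 10 dpa and 86 to 92.2% at 1 dpa. Saturation, at 65000 or more, was reached by 2 member spots, both of the L8 gene Contig3832 on replicate 1. Pearson's r over the log2 ratios of the 43 members was 0.813 between replicates 2 and 3. It was 0.691 between replicates 1 and 2, and 0.643 between replicates 1 and 3. Over all 11143 genes r was 0.839, 0.575 and 0.601 for these pairs, in that order. Members are not independent of each other. Replicates 1 and 2 share an RNA code of 1 dpa fiber, replicates 1 and 3 share one of 10 dpa fiber, and replicates 2 and 3 share neither.

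Nearly all of these mRNAs were less abundant in 10 dpa fiber than at 1 dpa. Of the 43 members, 37 were lower at an adjusted p under 0.05 from limma, 0 were higher and 6 did not pass. Over all 11143 genes 5.61% were called lower and 8.03% higher, and among the 1020 genes of the additional file found by name 23.2% were called lower. The median log2 ratio of the members was -1.13, or 2.19-fold lower, and their ratios ranged from -1.92 to 0.61. The median over all genes was -0.04 and that over the other genes of the file was 0.41. The ratio was negative on all 3 arrays for 41 members, which is 95.3% of them, against 20.1% of all genes and 27.9% of the other genes of the file. Taken array by array, the members' median was -0.86, -1.10 and -1.32 for replicates 1 to 3, so the arrays had the same direction with replicate 1 nearest to 0. By the methods' thresholds of 2-fold and an unadjusted p of 0.05, with the p taken here from limma, 29 members were lower. Those thresholds called 1.98% of all genes lower, and 152 of the 977 other genes of the file. In 39 members the normalized intensity of every array was lower in 10 dpa fiber than that of any array in 1 dpa fiber. That pattern was found in 10.7% of all genes and in 228 of the 977 other genes of the file. These shares are given for reading the counts, since the rule drew on the same contrast. All 43 members had a mean intensity above that of the median gene, and 29 were among the brightest 10% of genes. The shares over all genes thus include many dimmer genes, and shares at matched intensity were not computed.

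**Figure D1:**
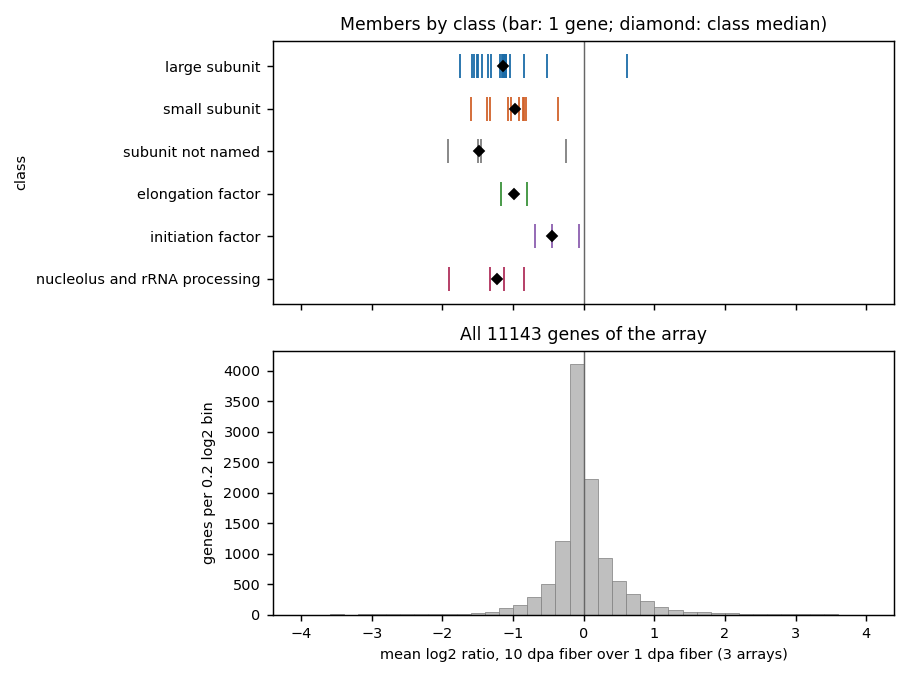
Mean log2 ratios of 10 dpa over 1 dpa fiber (horizontal axis, 3 arrays). In the upper panel each bar is 1 of the 43 members, set in rows by class, and a diamond is the class median; the lower panel counts all 11143 genes in bins of 0.2. All class medians lie below 0, from -1.48 for ribosomal proteins without a named subunit to -0.46 for initiation factors, while the median of all genes is -0.04.

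The calls depended on how the arrays were normalized and tested. When each array was centred on its median without loess, 17 members were called lower, and the median log2 ratio of all members was -0.93. Over all genes, that setting called 191 lower and 512 higher, against 625 lower and 895 higher with loess. By class it called lower 9 of 20 large subunit genes, 3 of 10 small subunit genes and 3 of 4 without a named subunit. It also called lower 2 of 4 nucleolar genes, 0 of 2 elongation factors and 0 of 3 initiation factors. After scaling the ratios between arrays, no gene of the array passed the adjusted p, neither higher nor lower, so 0 members did. At an unadjusted p under 0.05 that setting had 40 members and 2699 of all 11143 genes. A plain, unmoderated F-test of single genes, run on these 3 arrays, also left 0 of all genes past the adjusted p, with 32 members and 1811 of all genes at an unadjusted p under 0.05. The test of the methods, which pools its error over more arrays and treatments, was not run here. Median centring, scaling and the plain F-test also ended every call that is said below to end in another setting.

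The 20 genes of the large subunit had a median log2 ratio of -1.14, and 18 of them were called lower, 0 higher and 2 were not called. The lowest was Contig7405, a weak match to L39, a small protein at the exit of the tunnel through which the new chain leaves. Its normalized intensity was 840, 562 and 853 in 10 dpa fiber on replicates 1 to 3, against 2903, 1624 and 3258 in 1 dpa fiber. All 10 dpa values lay below all 1 dpa values, and the ratios of -1.79, -1.53 and -1.93 gave a mean of -1.75 ± 0.20 (SD, n = 3 arrays), or 3.37-fold lower. Contig16196 encodes L11, best matched to a protein of Theileria. Its intensity was 684, 418 and 711 in 10 dpa fiber, against 1849, 1377 and 2126 in 1 dpa fiber, without overlap. The log2 ratios of Contig16196 were -1.43, -1.72 and -1.58, a mean of -1.58 ± 0.14 or 2.98-fold lower. A weak match means here that the expect value of the best match was above 1e-05, which held for 3 members, all of the large subunit.

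In all, 17 of the 20 genes of the large subunit were lower by at least 2-fold with an unadjusted p of 0.05. The gene TMIRS_097_A01.F, for L40, which is made as a fusion with ubiquitin and then cut free, had a log2 ratio of -1.55 ± 0.43. Contig10450 resembles L7Ae, of a family of RNA-binding proteins, and had a ratio of -1.44 ± 0.35 from a single probe. Contig16184, for L37a, had -1.35 ± 0.26. Contig183 encodes L5, which carries the smallest ribosomal RNA into the large subunit. Its intensity was 8235, 4874 and 6113 in 10 dpa fiber, against 13766, 12824 and 15216 in 1 dpa fiber, so the stages stood apart, and the mean log2 ratio was -1.15 ± 0.36. The L8 gene Contig3832, whose protein lies near the site of peptide bond formation, had intensities of 37100, 22034 and 27762 in 10 dpa fiber, against 69757, 48462 and 69218 in 1 dpa fiber. Its ratios were -0.91, -1.14 and -1.32, a mean of -1.12 ± 0.20 from a single probe, and leaving out the saturated spots of the array changed no call of a member. Between these lay L17 (Contig18618, -1.31 ± 0.44), L22 (Contig9769, -1.14 ± 0.30), L34 (Contig13261, -1.13 ± 0.23) and L27a (TMIRS_093_B04.F, a weak match, -1.13 ± 0.18). L35a (Contig426) had a log2 ratio of -1.10 ± 0.27, and L27 (Contig17536) was the called gene of this subunit nearest to 0, at -0.84 ± 0.07, and was not called with the median of its probes (-0.61).

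The arrays agreed least for Contig4206, which encodes L10, a protein that joins the large subunit late in its assembly. Its intensity was 6037, 3893 and 3714 in 10 dpa fiber, against 7348, 10768 and 13099 in 1 dpa fiber. The stages did not overlap, but replicate 1 gave a log2 ratio of -0.28, replicate 2 one of -1.47 and replicate 3 one of -1.82 (mean -1.19 ± 0.80). Its call ended without background correction and with the median of probes in place of their mean (-1.09). Contig1429 is described as a bacterial-type L9 of the 50S subunit and had a ratio of -1.11 ± 0.45.

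Of the 2 large subunit genes not called, Contig17016 was the single member with a positive mean. It is a weak match to a ribosomal protein L20. Its intensity was 1105, 665 and 1031 in 10 dpa fiber, against 812, 497 and 523 in 1 dpa fiber, so the stages overlapped. On each array, however, 10 dpa fiber was the higher stage, with log2 ratios of 0.44, 0.42 and 0.98 and a mean of 0.61 ± 0.32. The gene was called higher without replicate 2 (0.71) and when dim probes were filtered out. The other, Contig7680, is 1 of 2 genes described as L36 and is given with its namesake below.

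**Figure D2:**
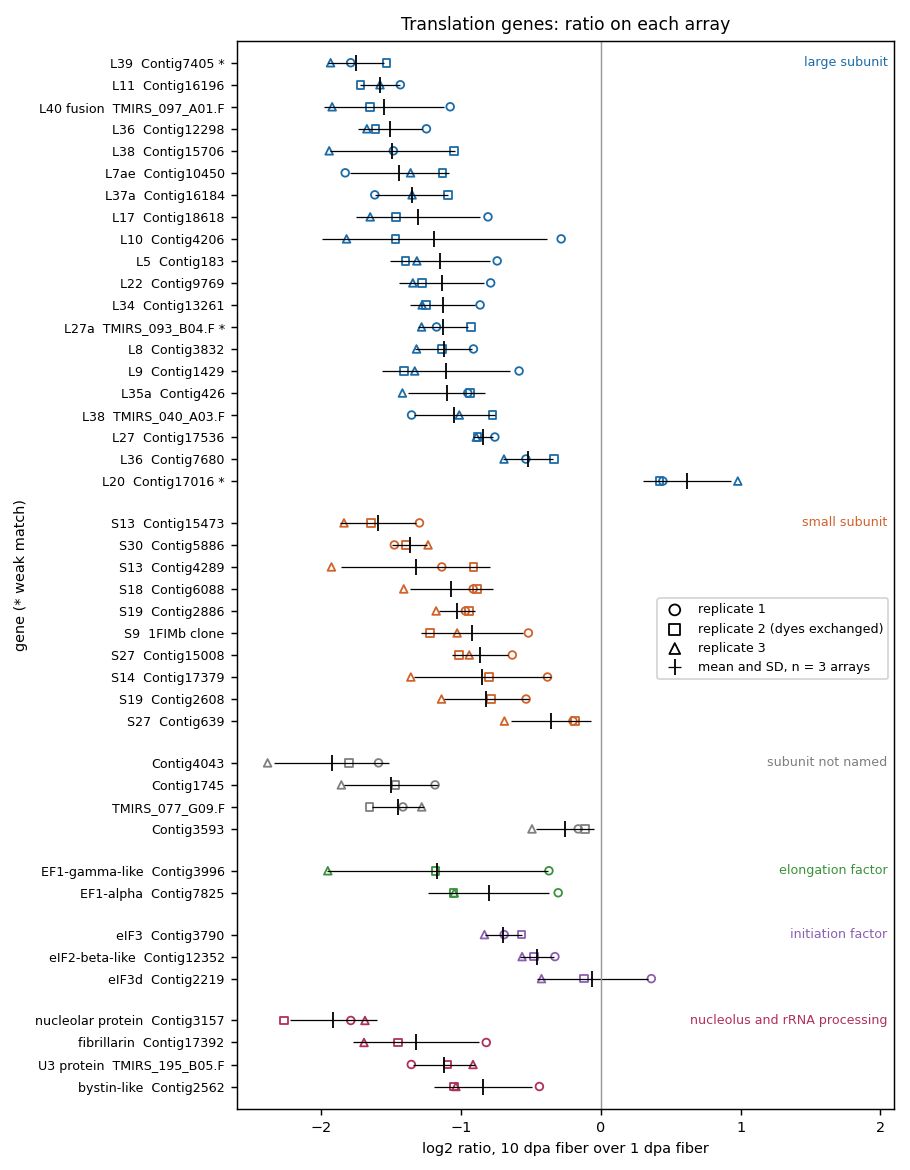
Log2 ratio of 10 dpa over 1 dpa fiber (horizontal axis) of each of the 43 members on each array, with circles for replicate 1, squares for replicate 2 (dyes exchanged) and triangles for replicate 3; the tick and line give the mean and SD over 3 arrays, and asterisks mark weak matches. Genes are ordered by mean within each class, and the points of 41 genes lie wholly left of 0; the exceptions are the L20 match Contig17016, wholly right of 0, and the eIF3d gene Contig2219, whose points fall on both sides.

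The 10 genes of the small subunit were lower by a median log2 ratio of -0.98, and 9 were called lower, 0 higher and 1 was not called. The lowest was Contig15473, 1 of 2 genes for S13. Its intensity was 3564, 4089 and 5042 in 10 dpa fiber, against 8756, 12770 and 18011 in 1 dpa fiber. Its highest 10 dpa value was below its lowest 1 dpa value, and ratios of -1.30, -1.64 and -1.84 gave a mean of -1.59 ± 0.27, or 3.02-fold lower. Contig5886 encodes S30, which in human is made as a fusion with a ubiquitin-like protein. Its intensity was 612, 410 and 639 in 10 dpa fiber, against 1703, 1077 and 1505 in 1 dpa fiber, and its mean ratio was -1.37 ± 0.12. S18 (Contig6088) had a log2 ratio of -1.07 ± 0.30. A clone described as a bacterial-type S9 of the 30S subunit had -0.92 ± 0.36. Contig17379 encodes S14, a protein of the platform of the small subunit. Its log2 ratios were -0.38, -0.80 and -1.36 (mean -0.85 ± 0.49), and its call ended without replicate 3 (-0.59), with the median of probes and without the array as a block.

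The median of the large subunit genes was lower than that of the small subunit genes on each array, by -0.16, -0.27 and -0.14 on the log2 scale. This gap was smaller than the range within either class, which ran from -1.75 to 0.61 in the large and from -1.59 to -0.36 in the small subunit. No test of the gap was made, because the genes of both classes were chosen with the contrast known.

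Among the 4 ribosomal proteins without a named subunit, 3 were called lower and 1 was not. Contig4043, best matched to a Petunia protein, was the lowest of all 43 members. Its intensity was 2066, 2194 and 2446 in 10 dpa fiber, against 6219, 7648 and 12762 in 1 dpa fiber. The 10 dpa values were close together and far below those of 1 dpa fiber, with log2 ratios of -1.59, -1.80 and -2.38 and a mean of -1.92 ± 0.41, or 3.80-fold lower. Contig1745, matched to Arabidopsis, had a ratio of -1.50 ± 0.34, and TMIRS_077_G09.F, matched to a fern protein called ribosomal protein I, had -1.45 ± 0.19. Contig3593, matched to wheat, was close to 0. Its intensity was 2970, 2732 and 2550 in 10 dpa fiber, against 3322, 2956 and 3586 in 1 dpa fiber, so the stages overlapped, and its log2 ratios were -0.16, -0.11 and -0.49 (mean -0.26 ± 0.21).

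Genes described with the same protein name allow the members of a pair to be set side by side on the same arrays. There were 5 such pairs, and the genes of a pair differed to unlike degrees. For L36, Contig12298 had log2 ratios of -1.25, -1.61 and -1.67 (mean -1.51 ± 0.23), whereas Contig7680 had -0.54, -0.34 and -0.69 (mean -0.52 ± 0.18). The difference was -0.71, -1.28 and -0.98 on the 3 arrays, with a mean of -0.99 ± 0.28 (SD, n = 3 arrays), the widest of the 5 pairs. Contig7680 was not called, although its intensity of 503, 495 and 587 in 10 dpa fiber lay below the 730, 625 and 948 of 1 dpa fiber. It was called lower without background correction.

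The S27 genes also differed in 1 direction on all arrays. Contig15008 had log2 ratios of -0.63, -1.01 and -0.94 (mean -0.86 ± 0.20), and Contig639 had -0.20, -0.18 and -0.69 (mean -0.36 ± 0.29). The difference was -0.43, -0.83 and -0.25, a mean of -0.51 ± 0.30. Contig639 was the small subunit gene not called, and its intensity of 3676, 4379 and 3186 in 10 dpa fiber overlapped with the 4220, 4975 and 5138 of 1 dpa fiber.

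In the other pairs both genes were called lower and the difference was closer to its spread. For S13, Contig15473 was given above, and Contig4289 had log2 ratios of -1.14, -0.91 and -1.93 (mean -1.32 ± 0.53). Their difference of -0.16, -0.73 and 0.09 changed sign between arrays. For L38, Contig15706, with a single probe, had ratios of -1.48, -1.05 and -1.94 (mean -1.49 ± 0.45), and TMIRS_040_A03.F had -1.35, -0.78 and -1.01 (mean -1.05 ± 0.29), a difference of -0.44 ± 0.43. For S19, Contig2886 had -0.97, -0.94 and -1.18 (mean -1.03 ± 0.13), and Contig2608 had -0.53, -0.79 and -1.14 (mean -0.82 ± 0.30), a difference of -0.21 ± 0.20. The call for Contig2608 ended without replicate 3 (-0.66) and without the array as a block. Near-identical copies can share label on a probe, and the sequences were not compared here. The pairs rest on the shared name alone, and of the L36 genes only Contig12298 is described as a 60S protein.

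Both elongation factor genes were lower, with replicate 1 nearest to 0 in each. Contig7825 encodes elongation factor 1-alpha, which delivers aminoacyl-tRNA to the ribosome. Its intensity was 6408, 5758 and 5382 in 10 dpa fiber, against 7915, 11949 and 11129 in 1 dpa fiber. The stages did not overlap, and the log2 ratios were -0.30, -1.05 and -1.05, a mean of -0.80 ± 0.43, with the call lost without replicate 2 (-0.68) and without replicate 3 (-0.68). Contig3996 resembles elongation factor 1 gamma, part of the complex that recharges elongation factor 1-alpha with GTP. Its intensity was 3575, 3768 and 2973 in 10 dpa fiber, against 4624, 8554 and 11508 in 1 dpa fiber. The 10 dpa values varied little and the 1 dpa values more than 2-fold, so that the ratios were -0.37, -1.18 and -1.95 (mean -1.17 ± 0.79). That call ended without background correction, with the median of probes and without the array as a block.

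The initiation factor genes were nearest to 0 of all classes, with 1 of 3 called lower and none higher. Contig3790 is described as subunit 7 of eIF3, which binds the small subunit and the mRNA. Its intensity was 2675, 2601 and 2426 in 10 dpa fiber, against 4319, 3854 and 4319 in 1 dpa fiber. Its log2 ratios were -0.69, -0.57 and -0.83 (mean -0.70 ± 0.13), and it was not called without replicate 3 (-0.63). Contig12352 resembles the beta chain of eIF2, the factor that brings the initiator tRNA. Its intensity was 3109, 3511 and 3601 in 10 dpa fiber, against 3903, 4883 and 5320 in 1 dpa fiber. The stages stood apart by little, with ratios of -0.33, -0.48 and -0.56 (mean -0.46 ± 0.12), and the gene was called lower without replicate 1 (-0.52), without background correction and with the median of probes. Contig2219 encodes eIF3d and had intensities of 2598, 2012 and 1806 in 10 dpa fiber, against 2022, 2184 and 2424 in 1 dpa fiber. It was the member whose arrays differed in sign, with log2 ratios of 0.36, -0.12 and -0.42 in the order of the replicates (mean -0.06 ± 0.40), and its mean turned positive with median centring (0.12) and without replicate 3 (0.12).

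**Figure D3:**
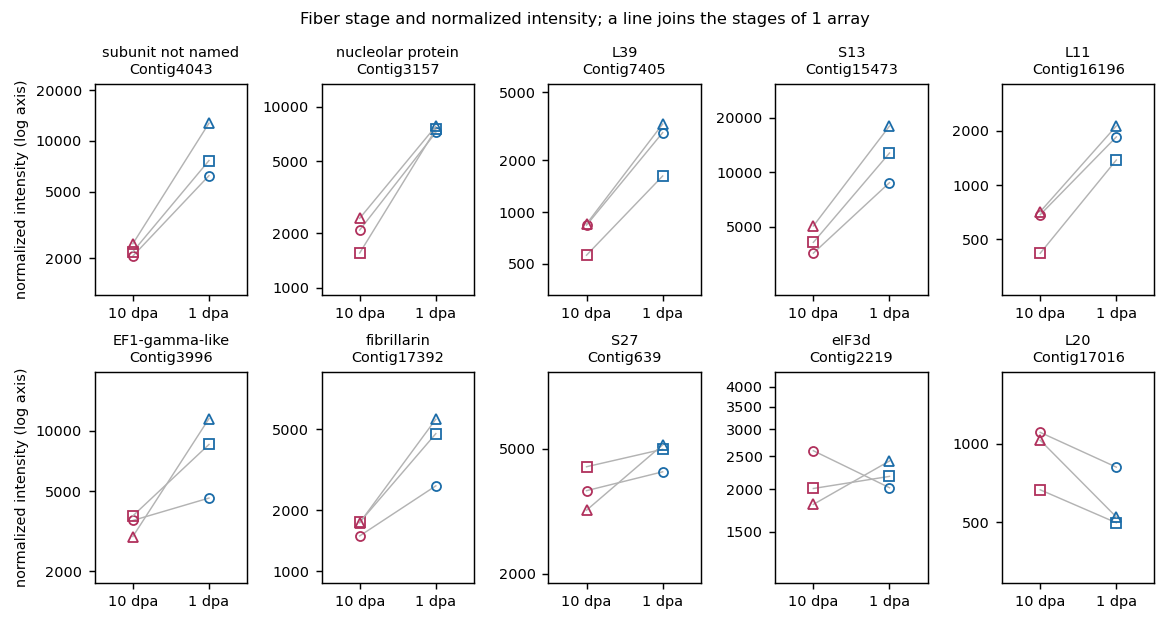
Normalized intensity (vertical log axis, scaled for each gene) of 10 members in 10 dpa fiber (left) and 1 dpa fiber (right), with circles for replicate 1, squares for replicate 2, triangles for replicate 3 and a line joining both stages of an array. The first 5 panels are the lowest members, in which every line runs upward to 1 dpa fiber; among the last 5, the stages overlap for S27 (Contig639), eIF3d (Contig2219) and the L20 match (Contig17016), and only the last has all its lines running downward.

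All 4 genes of the nucleolus and of rRNA processing were called lower, with a median log2 ratio of -1.22. Contig3157, described only as a nucleolar protein of Arabidopsis, had intensities of 2087, 1559 and 2422 in 10 dpa fiber, against 7207, 7502 and 7798 in 1 dpa fiber. The 1 dpa values were nearly level and each 10 dpa value was far below them. The log2 ratios of Contig3157 were -1.79, -2.27 and -1.69, a mean of -1.91 ± 0.31 or 3.77-fold lower. Contig17392 encodes fibrillarin, the methyltransferase that modifies rRNA with the guidance of small nucleolar RNAs. Its intensity was 1493, 1742 and 1733 in 10 dpa fiber, against 2634, 4757 and 5605 in 1 dpa fiber, and its ratios were -0.82, -1.45 and -1.69 (mean -1.32 ± 0.45).

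The other nucleolar genes act on the precursor of rRNA. TMIRS_195_B05.F resembles a human protein that interacts with the U3 small nucleolar RNA, which is needed for the early cleavages of that precursor. Its intensity was 623, 481 and 558 in 10 dpa fiber, against 1593, 1029 and 1052 in 1 dpa fiber, and its log2 ratios were -1.36, -1.10 and -0.91 (mean -1.12 ± 0.22). Its lowest ratio was on replicate 1. Contig2562 resembles bystin, known in yeast and human for a part in making the small subunit. Its intensity was 513, 444 and 457 in 10 dpa fiber, against 695, 919 and 937 in 1 dpa fiber, without overlap, and its ratios were -0.44, -1.05 and -1.04 (mean -0.84 ± 0.35).

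In their means over the arrays, the probes of a gene agreed in direction in most members. On replicate 1 alone, several called genes had a positive probe. Among ribosomal proteins these included L10 (Contig4206), L5 (Contig183), S18 (Contig6088) and S19 (Contig2608). Others were elongation factor 1-alpha (Contig7825), the eIF3 subunit of Contig3790, fibrillarin (Contig17392) and the bystin match (Contig2562). Of the 157 member probes, 150 had a negative mean log2 ratio. The 7 others were the 4 probes of Contig17016 and 1 probe each of Contig2219, Contig3593 and Contig639, the 4 genes whose stages overlapped in intensity. Within a gene the probes could differ widely, most for S30 (Contig5886), whose probes ranged from -2.44 to -0.13. The probes of L34 (Contig13261), from -1.19 to -1.04, were among the closest together. Probes of a gene share its transcript and do not replicate a stage.

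**Figure D4:**
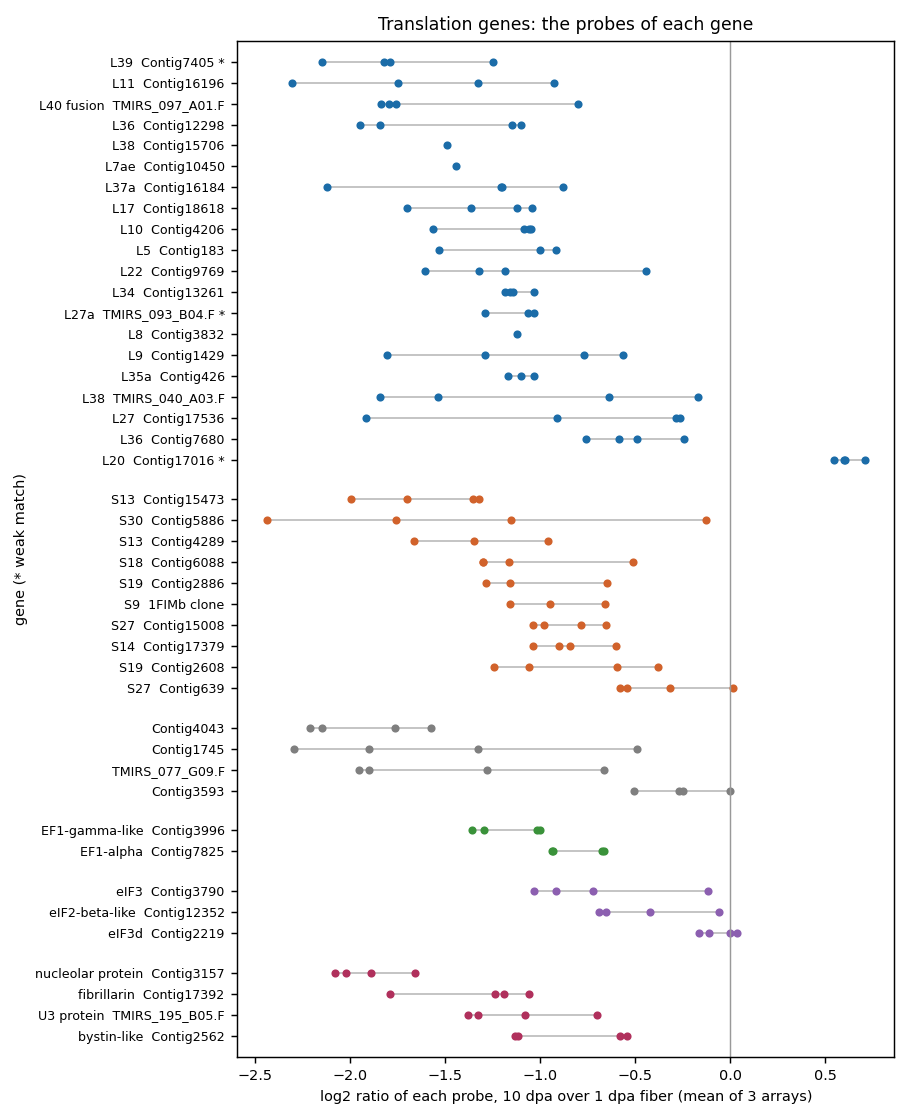
Mean log2 ratio of 10 dpa over 1 dpa fiber (horizontal axis, 3 arrays) of each of the 157 probes, 1 row for each of the 43 members, with a line from the lowest to the highest probe of a gene; asterisks mark weak matches. The probes lie left of 0 except for the 4 of the L20 match Contig17016 and 1 each of Contig639, Contig3593 and Contig2219 that lie at or just above it.

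Of 5 other translation genes in the additional file, 2 were called lower, 1 higher and 2 were not called, so their directions were mixed. Contig15688, described as elongation factor beta-1, a partner of the gamma subunit, had log2 ratios of -0.42, -0.96 and -1.23 (mean -0.87 ± 0.41) and was called lower. TMIRS_103_E11.F, which resembles a ribosomal protein of yeast mitochondria, was called lower with a mean of -1.28 ± 0.51. Contig1412, for the release factor eRF1, which ends translation, had a log2 ratio of -0.32 ± 0.47, and Contig15873, a glutamyl-tRNA amidotransferase, was called higher with 3.27 ± 0.30. Of 6 genes for RNA-binding proteins and RNA helicases, 5 were called higher and 1 lower. Among those called higher, Contig15573 and Contig15450 are weak matches. Both lists come from the additional file, where 432 of the 1020 genes found by name were called higher and 237 lower.

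Genes of cell division and chromatin moved partly with the members. Of 10 such genes, 4 were called lower, 2 higher and 4 were not called, with a median log2 ratio of -0.59. The file's 1020 genes found by name had 237 called lower and 432 higher. In 10 dpa fiber the summed normalized intensity of the 10 division and chromatin genes was 17300, 11390 and 14000. In 1 dpa fiber it was 36200, 25010 and 33140, so the sums did not overlap. The histone, histone-like and topoisomerase genes of this list all had negative log2 ratios on every array, with histone H1 (Contig4454) lowest at -1.78 ± 0.14. Ribonucleotide reductase (Contig3252), which makes the building blocks of DNA, was called higher at 1.88 ± 0.27. The other gene called higher, TMIRS_190_H08.F at 1.10 ± 0.12, is a weak match to a cyclin-like protein. The words for green tissue and seed found only 2 genes, whose summed intensity was 7392, 4671 and 5538 in 10 dpa fiber, against 2569, 1338 and 1127 in 1 dpa fiber. A weak match to a photosystem protein (Contig1440) was called higher at 2.23 ± 0.53, and a seed specific protein (Contig17541) was not called at -0.33 ± 0.16. What part other cells had in the ratios of the members was not tested.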

How the data were processed

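The deposited scanner files of the authors hold the mean intensity of every spot in both channels, with the mean intensity of the local background, quantified with Agilent Feature Extraction and neither background-subtracted nor dye-normalized. A deposited table of processed values was not used, since its identifiers match no probe. The fold and probability columns of the study's additional file were not read.

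Intensities were corrected with normexp (offset 50) in limma 3.58.1 (R 4.3.3, with jsonlite 2.0.0), and log2 ratios were normalized by loess on each array, with 2256 control spots at weight 0. The ratio of the array with exchanged dyes was turned. Averages were taken over the spots of a probe, then over the probes of a gene (42034 spots, 40372 probes, 11143 genes). Ratios were fitted with lmFit and eBayes against 0 on 3 arrays, with Benjamini-Hochberg adjustment over all genes. Both stages share an array, so the array is the block. Intensities by stage were scaled between arrays (Aquantile) after loess. Levels were not compared between genes, apart from placing the members' mean intensity among all genes. The procedure was run on simulated data, with noise drawn separately for each array, whereas these arrays share RNA codes. That check required only the right direction of planted changes and does not bear on the calls here. The number of arrays limits the precision.

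The members and lists were chosen with earlier results of these data known. Values on each array were given for the 5 lowest and 3 highest members, for members that share a protein name, for all translation factors and nucleolar genes, and for members whose arrays differ in sign. Values of L10, L5, L8, S30 and S14 on each array were added after their values had been seen. Alternatives concerned the arrays (median centring, no background correction, a dye term, scaling between arrays), the probes (their median, or only those above background), the test (no array block, or an F-test for each gene alone on these 3 arrays, which is simpler than the methods' test with its further arrays and random effects), stricter annotation, and each replicate left out in turn. The alternative without saturated spots was chosen after seeing the data.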

Additional observations from a re-analysis of the deposited data

How the results depend on the processing

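The number of members called lower, 37, was 17 with median centring, which called 191 of all genes lower. It was 0 with scaling between arrays and 0 with an F-test for each gene alone on 3 arrays. With scaling and with that F-test, 0 of all 11143 genes passed the adjusted p. An unadjusted p under 0.05 was found for 2699 genes with scaling and 1811 with the F-test. Members called lower numbered 34 with the median of probes and with no array block. They numbered 37 with no background correction, the filter on dim probes, a dye term and without saturated spots. There were 35 among members with no weak match and 32 without bacterial-type names or unnamed subunits. Leaving out a replicate gave 33 to 38 such members. Of all 11143 genes, 625 were called lower in the main fit. Without replicates 1, 2 and 3 in turn, 1212, 448 and 447 of all genes were. Among all genes, 402 were called lower with no array block and 509 with the median of probes. A dye term gave 773 of all genes, and no background correction 643. The filter on dim probes gave 657 of 11006 genes, and leaving out saturated spots 622 of 11137. The number of members called higher, 0, was 1 with the filter on dim probes and 0 to 1 when a replicate was left out. That gene was the L20 match Contig17016. The median log2 ratio stayed negative in every setting run, from -1.28 with scaling to -0.93 with median centring for all members, from -1.32 to -0.997 for the large subunit and from -1.11 to -0.78 for the small subunit, and it was -1.23 to -1.02, -1.29 to -1.06 and -1.10 to -0.88 when a replicate was left out. The mean of Contig2219 turned to 0.12 with median centring, and leaving out a replicate gave -0.27 to 0.12, positive without replicate 3. The cause of these changes was not tested. The fit is paired by array, since each array holds both stages, and 34 is its count without that block. With 3 arrays the precision of each ratio is limited, while all member spots were brighter than 95% of the negative controls in both stages.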
